A study of Mus musculus with 12 samples.

Results

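The aryl hydrocarbon receptor (AhR) pathway was followed across the 4 groups of a study of cultured mouse adventitial fibroblasts. Its members were chosen by name as 7 of the 54352 gene symbols counted: *Ahr*, *Arnt*, *Ahrr*, *Tiparp*, *Cyp1a1*, *Cyp1b1* and *Nqo1*. Of these, 6 passed the filter on low counts in every comparison, and *Cyp1a1* passed in none. Adventitial fibroblasts make and maintain the matrix of the outermost layer of the vessel. They were grown from pieces of adventitia of the ascending or descending aorta of wild-type C57Bl/6 mice, labelled as 14 weeks old and passaged 1 time. The cultures received solute control or mouse TGFβ at 10 ng/mL for 48 h. The groups were descending control, descending TGFβ, ascending control and ascending TGFβ, with 3 RNA libraries each, all under the same batch label. The methods describe male mice, with the aortic root kept in the ascending piece, and give another age than the labels, and the study's results give another number of passages. Nothing says that the replicates of a group came from separate animals, so the p-values measure the spread between these cultures, which may be technical. Culture in serum and a single passage limit these cells as a model of the vessel wall.

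The aryl hydrocarbon receptor, encoded by *Ahr*, is a bHLH-PAS transcription factor that waits in the cytosol with Hsp90 chaperones until it binds a ligand such as a dioxin, a plant indole or a tryptophan metabolite. It then enters the nucleus, pairs with ARNT, encoded by *Arnt*, and binds the core sequence GCGTG of the xenobiotic response element near its target genes. Among these are the cytochrome P450 genes *Cyp1a1* and *Cyp1b1*, the quinone reductase gene *Nqo1*, and the genes of a pair of inhibitors, the AhR repressor (*Ahrr*), which competes for ARNT, and TIPARP, which ADP-ribosylates the receptor. *Nqo1* is also a classical target of NRF2, the transcription factor of the antioxidant response. CYP1B1 is the P450 of this family that mesenchymal cells typically express.

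RefSeq promoter windows of GRCm38.p6, running from 250 bases before to 50 bases after the gene start, were at hand for 6 of the 7 members (all but *Ahr*). GCGTG was sought on both strands of each window. The letters were found in 32.4% of all 32851 such windows, so a single match is common. The windows of 4 members are shown because these genes moved in different directions with TGFβ in the measurements that follow, and capitals mark GCGTG or its complement CACGC. They are those of *Nqo1* at chr8:107403156-107403455 (minus strand), *Ahrr* at chr13:74292282-74292581 (minus strand), *Cyp1b1* at chr17:79715012-79715311 (minus strand) and *Tiparp* at chr3:65528197-65528496 (plus strand).
Nqo1: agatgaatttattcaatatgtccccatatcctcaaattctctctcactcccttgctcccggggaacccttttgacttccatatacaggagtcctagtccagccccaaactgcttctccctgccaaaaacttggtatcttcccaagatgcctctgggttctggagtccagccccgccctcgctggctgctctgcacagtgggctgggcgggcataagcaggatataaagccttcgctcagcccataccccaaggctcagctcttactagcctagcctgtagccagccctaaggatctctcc
Ahrr: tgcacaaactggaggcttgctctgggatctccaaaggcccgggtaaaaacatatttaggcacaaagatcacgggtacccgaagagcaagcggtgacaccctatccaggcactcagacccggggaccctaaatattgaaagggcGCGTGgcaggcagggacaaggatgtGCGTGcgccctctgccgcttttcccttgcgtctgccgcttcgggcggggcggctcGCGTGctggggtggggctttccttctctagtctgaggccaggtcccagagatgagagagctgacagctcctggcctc
Cyp1b1: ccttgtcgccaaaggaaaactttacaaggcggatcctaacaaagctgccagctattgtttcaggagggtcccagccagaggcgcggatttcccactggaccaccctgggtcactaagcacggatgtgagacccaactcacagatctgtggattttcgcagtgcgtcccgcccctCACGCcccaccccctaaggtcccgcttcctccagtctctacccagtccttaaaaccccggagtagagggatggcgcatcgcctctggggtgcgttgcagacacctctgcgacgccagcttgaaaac
Tiparp: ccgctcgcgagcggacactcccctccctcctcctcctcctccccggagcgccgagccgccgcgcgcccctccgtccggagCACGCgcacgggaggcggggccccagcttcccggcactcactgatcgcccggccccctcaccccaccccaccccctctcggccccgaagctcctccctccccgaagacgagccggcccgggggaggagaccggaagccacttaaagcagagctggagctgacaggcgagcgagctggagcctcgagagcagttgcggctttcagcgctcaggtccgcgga
The *Ahrr* window held 3 copies on its own strand, at -107, -82 and -27 from the start, and 3 or more copies occurred in 3.91% of all windows. The windows of *Cyp1b1* and *Tiparp* each held 1 copy on the other strand, at -76 and -170. *Arnt* and *Cyp1a1*, whose windows are not printed, held 1 copy each on their own strand, at -29 and -54. These offsets count from the RefSeq start, which for *Cyp1a1* lies downstream of the start of the gene model whose position is given with its counts. No match lay in the *Nqo1* window. The antioxidant response letters TGACNNNGC, found in 12.4% of all windows, matched in *Arnt* only, at -127 and -50. A match is a description of the letters, not a site.

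Library totals lay between 16250126 and 23892943 counted reads. Levels are given as normalized CPM, the count scaled to the library total after edgeR's TMM scaling. A count of 3 or fewer was taken as the floor, at 0.117 to 0.207 normalized CPM, and covers counting error only, since PCR reads are not independent molecules. Descending control replicate 3 stood apart. It had a count on 13031 genes, against 19337 to 20931 in the other libraries, and mitochondrial genes took 11.02% of its reads, against 0.703 to 1.03% elsewhere. Relative to the mean of the other descending controls, it had 1.41 times the *Arnt* level, 1.28 times that of *Cyp1b1*, 1.24 times that of *Ahrr*, 1.23 times that of *Ahr*, 0.997 times that of *Tiparp* and 0.833 times that of *Nqo1*. Results of the members that rest on it are given with and without it, the second choice made after the data were seen.

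Of the 6 tested members, 2 answered TGFβ differently at the 2 sites by the interaction test, which called 0.806% of all genes. These calls depended on the processing, and of 19 alternatives that of *Ahr* held in 7 and that of *Nqo1* in 10. The study had already named *Ahr* from an interaction test of these libraries. *Ahr* was 2.43-fold lower with TGFβ in descending fibroblasts, *Nqo1* was 2.15-fold higher there, and both moved less in ascending fibroblasts. *Cyp1b1* was the most abundant member. It was called lower with TGFβ in ascending fibroblasts and higher in ascending than in descending fibroblasts under TGFβ. The pairs that rest on the descending controls missed the threshold in the fits of the 6 libraries compared and passed it without replicate 3. Since RNA of whole cultures was measured, fewer cells of a type and less RNA per cell cannot be told apart. Genes were called at an adjusted p under 0.05 from edgeR's two-sided quasi-likelihood F-test with Benjamini-Hochberg adjustment over all genes tested. Adjusted p below come from it, except where another test is named or a range over the alternatives is given.

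With TGFβ in ascending fibroblasts, 2 members were called higher and 2 lower, where 28.2% of all genes were called higher and 27.6% lower. With TGFβ in descending fibroblasts, 1 was called higher and 1 lower, against 3.59% and 4.48% of all genes. Without descending control replicate 3 these were 2 and 3 members, against 26.6% and 26.3%. Between the sites without TGFβ, edgeR called 0 members, 2 of which had an unadjusted p under 0.05, against 1.19% of all genes higher and 1.47% lower in ascending fibroblasts. DESeq2's Wald test called 1 member there, against 4.07% of all genes. Without descending control replicate 3, 1 was called higher and 2 lower, against 16.4% and 15.2%. Between the sites under TGFβ, 2 were called higher and 1 lower in ascending fibroblasts, against 18.1% and 18.2%. The interaction, the ascending minus the descending response to TGFβ, called 1 member in each direction with 12 libraries, against 0.321% of all genes with a positive and 0.485% with a negative interaction. Without descending control replicate 3 it again called 1 in each direction, against 6.07% and 7.40%. In the comparisons where at least 26.3% of all genes passed in each direction, a call sets a member apart little from other genes. The median log2 fold change of the 6 members was -0.11 with TGFβ in ascending and -0.32 in descending fibroblasts, against -0.00 and 0.02 over all genes tested, and -0.22 against -0.01 in descending fibroblasts without control replicate 3. The comparisons share groups with each other, so their values are set side by side and not correlated.

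**Figure D1:**
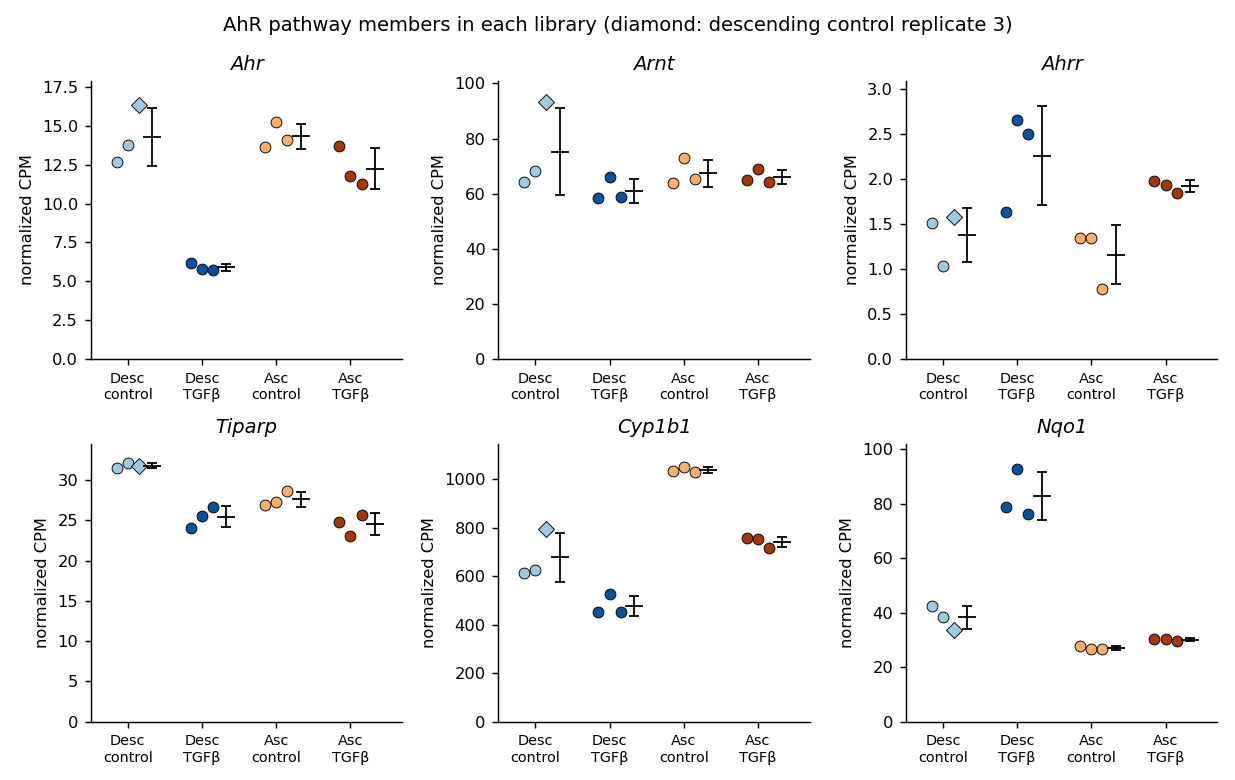
Normalized CPM (linear axes from 0) of the 6 tested members in each of the 12 libraries by group, with the group mean and SD (n = 3) as bars and descending control replicate 3 as a diamond. *Ahr* lay at 5.72 to 6.17 in descending TGFβ and above 11 in every other library, *Nqo1* lay highest in descending TGFβ, and *Cyp1b1* lay higher in ascending than in descending libraries of the same treatment.

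Per length, the members kept one order in every group. On the scale of normalized CPM per kilobase of exon, the level in ascending control was 178 for *Cyp1b1*, 17.4 for *Nqo1*, 8.43 for *Arnt*, 6.34 for *Tiparp*, 2.32 for *Ahr* and 0.123 for *Ahrr*, with *Cyp1a1* at 0. In descending TGFβ, where *Cyp1b1* and *Nqo1* came closest, their levels per kilobase were 81.7 and 53.3. Neighbours in the order did not overlap across the 3 libraries of any group. *Cyp1b1* lay between the 96.3 and 98.5 percentiles of 14546 genes by level per kilobase in the 4 groups, while *Ahr* lay at the 40.2 percentile in ascending control and the 26.3 percentile in descending TGFβ.

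*Ahr*, the receptor gene, lies at chr12:35497974-35535038 of GRCm38 (minus strand). Its level in descending control replicates 1, 2 and 3 was 12.7, 13.8 and 16.3 normalized CPM. With TGFβ the descending libraries read 6.17, 5.80 and 5.72, from 107 to 121 counts each. In ascending fibroblasts the controls read 13.6, 15.2 and 14.1, and the TGFβ libraries 13.7, 11.8 and 11.2. The descending TGFβ libraries thus lay below all 9 others, and the other 3 groups overlapped each other. The descending means were 14.3 ± 1.88 without and 5.90 ± 0.243 with TGFβ, and the ascending means 14.3 ± 0.814 without and 12.3 ± 1.31 with it (SD, n = 3 each). In descending fibroblasts TGFβ changed *Ahr* by -1.28 on the log2 scale (SE 0.18, 95% interval -1.72 to -0.84, adjusted p = 0.0125), and by -1.16 (SE 0.13, adjusted p = 6.07e-09) without control replicate 3. Leaving out control replicate 2 or any 1 of the descending TGFβ libraries took the adjusted p to between 0.0606 and 0.104, with every estimate at -1.25 or lower. In ascending fibroblasts the log2 change was -0.23 (SE 0.10, 95% interval -0.44 to -0.03) and missed the threshold at an adjusted p of 0.0515. Over the alternatives this ascending value ranged from -0.32 to -0.17, with an adjusted p from 0.0171 to 0.341. The sites did not differ detectably without TGFβ, with a log2 difference of 0.01 (95% interval -0.39 to 0.42, adjusted p = 0.977), and of 0.13 (95% interval -0.09 to 0.34, adjusted p = 0.372) without descending control replicate 3. Under TGFβ *Ahr* was 2.08-fold higher in ascending fibroblasts (log2 1.05, SE 0.12, adjusted p = 3.01e-08). The test of the difference between the responses gave an interaction of 1.05 (SE 0.19, 95% interval 0.62 to 1.47, adjusted p = 0.0339), and 0.93 (SE 0.15, adjusted p = 8.80e-05) without descending control replicate 3. Of the 50-base sequences of *Ahr* exons, 1.27% occur in the antisense gene *Gm48236*, which had 0 to 3 reads per library.

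*Arnt*, the gene of the receptor's partner, lies at chr3:95434388-95497240 (plus strand) and showed no call in any of the 5 comparisons with all libraries compared or without descending control replicate 3. Its levels were 64.3, 68.2 and 93.3 normalized CPM in descending control, the last being the library that stood apart. They were 58.3, 66.2 and 58.8 in descending TGFβ, 63.9, 73.1 and 65.4 in ascending control, and 64.9, 69.0 and 64.1 in ascending TGFβ. The groups overlapped in all 4 pairwise comparisons. With TGFβ the log2 change of *Arnt* was -0.04 in ascending (95% interval -0.15 to 0.08, adjusted p = 0.605) and -0.31 in descending fibroblasts (95% interval -0.75 to 0.13, adjusted p = 0.360), the latter -0.12 (95% interval -0.25 to 0.02) without control replicate 3. Between the sites under TGFβ the log2 difference was 0.12 (95% interval 0.01 to 0.23, adjusted p = 0.0933). It was called without descending TGFβ replicate 2 (0.17, adjusted p = 0.0123) and in 0 of the other alternatives, whose adjusted p lay between 0.0608 and 0.947.

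The inhibitors differed from each other. *Ahrr*, at chr13:74211118-74292331 (minus strand), was the lowest tested member and rested on 16 to 53 counts per library, which limits its precision. Its descending levels were 1.52, 1.04 and 1.59 normalized CPM without and 1.63, 2.66 and 2.50 with TGFβ. Its ascending levels were 1.35, 1.35 and 0.779 without and 1.98, 1.94 and 1.85 with TGFβ. Every TGFβ library lay above every control library of its site, by a narrow gap in descending fibroblasts, while the sites overlapped. *Ahrr* rose with TGFβ in ascending fibroblasts by 0.72 on the log2 scale (SE 0.28, adjusted p = 0.0364). That call was lost under DESeq2 (adjusted p = 0.12), in one fit of 12 libraries (adjusted p = 0.176), without ascending control replicate 3 (0.51, adjusted p = 0.152) and without any 1 ascending TGFβ library (adjusted p from 0.0652 to 0.0811). In descending fibroblasts the log2 change was 0.70 (SE 0.41, 95% interval -0.29 to 1.70, adjusted p = 0.358), and 0.81 (SE 0.30, adjusted p = 0.0230) without control replicate 3. Its interaction was 0.01 with a 95% interval of -0.95 to 0.98, which is wide enough to hold a nearly 2-fold difference in either direction, and -0.09 (95% interval -0.97 to 0.79) without descending control replicate 3.

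*Tiparp*, at chr3:65528410-65555518 (plus strand), encodes the enzyme that marks and damps the receptor. In descending fibroblasts it read 31.5, 32.1 and 31.7 normalized CPM without and 24.1, 25.6 and 26.7 with TGFβ. In ascending fibroblasts it read 26.9, 27.3 and 28.7 without and 24.8, 23.0 and 25.7 with TGFβ. The descending controls lay above all other libraries, and the TGFβ groups of both sites overlapped. *Tiparp* fell by 0.18 on the log2 scale with TGFβ in ascending fibroblasts (SE 0.06, adjusted p = 0.0248). That call was lost under DESeq2 (adjusted p = 0.126), in one fit of 12 libraries (adjusted p = 0.235), without ascending control replicate 3 (adjusted p = 0.0987) and without ascending TGFβ replicate 2 (adjusted p = 0.118). In descending fibroblasts its log2 change was -0.33 (SE 0.12, adjusted p = 0.161), and -0.32 (SE 0.08, adjusted p = 0.00107) without control replicate 3. Without TGFβ the log2 difference between the sites was -0.20 (SE 0.11, adjusted p = 0.500), and -0.19 (SE 0.06, adjusted p = 0.0349) without descending control replicate 3. Its interaction was 0.15 (95% interval -0.12 to 0.41, adjusted p = 0.640), and 0.14 (95% interval -0.06 to 0.35, adjusted p = 0.399) without that library. Of its 50-base exon sequences, 4.04% occur in the antisense gene *4931440P22Rik*, which had 0 to 23 reads per library.

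Of the P450 genes, *Cyp1a1*, at chr9:57687928-57703824 (plus strand) and the usual reporter of receptor activity, had 2 reads in the 12 libraries together. These were 1 read in descending control replicate 1 and 1 in ascending TGFβ replicate 1, so every library lay at or under the floor and no comparison was possible. Its paralog *Cyp1a2* had 1 read in all.

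*Cyp1b1*, at chr17:79701537-79715061 (minus strand), was by contrast counted 8844 to 23782 times per library. It read 612, 627 and 795 normalized CPM in descending control and 451, 525 and 454 in descending TGFβ. In ascending fibroblasts it read 1033, 1051 and 1031 in control and 757, 752 and 718 with TGFβ. All 4 pairs of groups that differ in site or treatment were separate, although descending control replicate 3 exceeded the ascending TGFβ libraries. TGFβ lowered *Cyp1b1* in ascending fibroblasts by 0.49 on the log2 scale (SE 0.03, adjusted p = 1.88e-10), a 1.40-fold change. In descending fibroblasts the log2 change was -0.52 (SE 0.15, adjusted p = 0.103), and -0.38 (SE 0.05, adjusted p = 9.98e-07) without control replicate 3. Ascending fibroblasts had 1.56-fold more under TGFβ (log2 0.64, SE 0.04, adjusted p = 1.08e-12). Without TGFβ the log2 difference between the sites was 0.62 (SE 0.14, adjusted p = 0.102), and 0.76 (SE 0.03, adjusted p = 6.06e-10) without descending control replicate 3. The interaction of *Cyp1b1* was 0.02 (95% interval -0.31 to 0.35, adjusted p = 0.944) with 12 libraries and -0.11 (95% interval -0.25 to 0.02, adjusted p = 0.319) with 11.

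*Nqo1*, at chr8:107388225-107403206 (minus strand), encodes the quinone reductase shared by the AhR and NRF2 programs. It read 42.5, 38.6 and 33.8 normalized CPM in descending control and 79.0, 92.9 and 76.4 in descending TGFβ. The ascending controls read 27.8, 26.7 and 26.8, and the ascending TGFβ libraries 30.5, 30.3 and 29.7. The order of the groups was descending TGFβ, descending control, ascending TGFβ and ascending control, and none of these neighbours overlapped. *Nqo1* rose with TGFβ by 1.10 on the log2 scale in descending (SE 0.15, 95% interval 0.74 to 1.46, adjusted p = 0.0106) and by 0.15 in ascending fibroblasts (SE 0.06, 95% interval 0.03 to 0.27, adjusted p = 0.0307). The ascending call was lost under DESeq2 (adjusted p = 0.166), without a filter (adjusted p = 0.0594), in one fit of 12 libraries (adjusted p = 0.425), and without ascending control replicate 2 or 3 or TGFβ replicate 1 or 2 (adjusted p from 0.0574 to 0.102). The descending call was lost without control replicate 2 or any 1 TGFβ library (adjusted p from 0.0594 to 0.0776, at 1.03 to 1.17). Without control replicate 3 the descending value was 1.03 (SE 0.07, adjusted p = 7.30e-13). Under TGFβ *Nqo1* was 2.74-fold lower in ascending fibroblasts (log2 -1.45, SE 0.06, adjusted p = 2.21e-17). Without TGFβ the log2 difference was -0.50 (SE 0.13, adjusted p = 0.161), and -0.57 (SE 0.06, adjusted p = 1.22e-05) without descending control replicate 3. The interaction was -0.96 (SE 0.15, 95% interval -1.29 to -0.62, adjusted p = 0.0182), and -0.88 (SE 0.10, adjusted p = 1.03e-06) without that library.

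**Figure D2:**
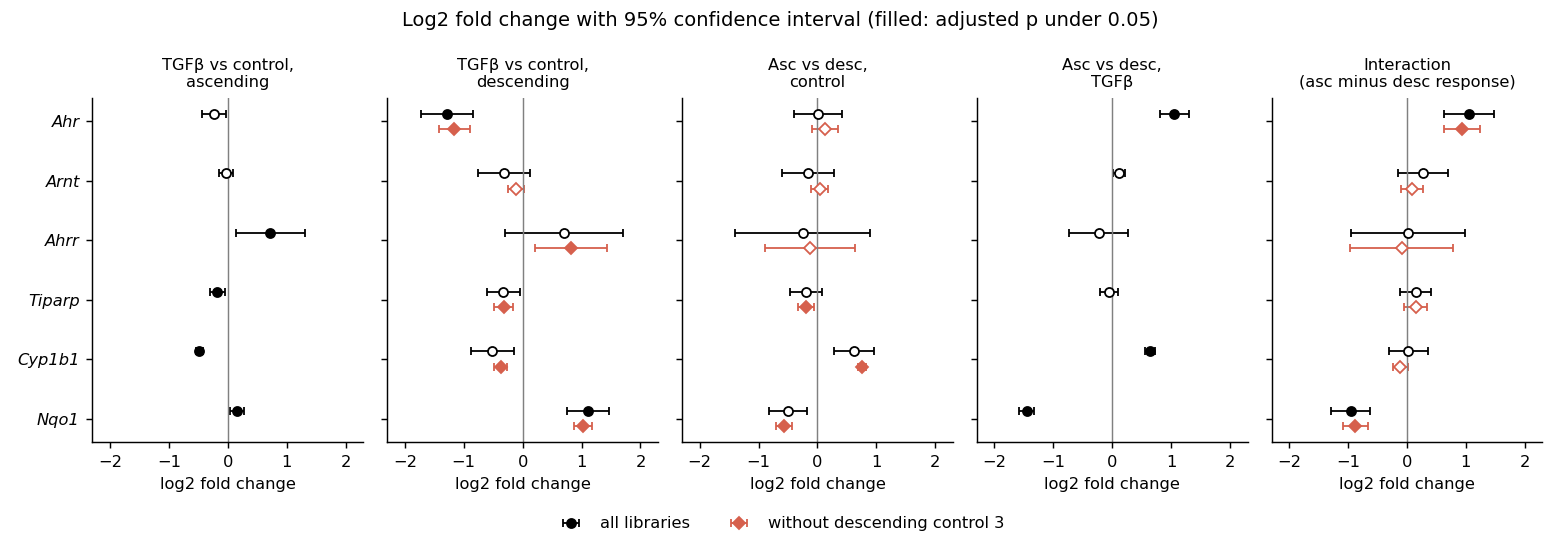
Log2 fold change with its 95% interval for the 6 tested members in the 5 comparisons, with all libraries (black) and without descending control replicate 3 (red). Filled symbols passed an adjusted p of 0.05. *Ahr* and *Nqo1* alone had filled symbols in the interaction, at 1.05 and -0.96, and the descending intervals narrowed without the library that stood apart.

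The stability of both interactions was followed over the alternatives. For *Ahr* the estimate stayed between 0.92 and 1.13 in all 19 alternatives, but the call was retained in 7, with adjusted p from 7.31e-05 to 0.13. For *Nqo1* the estimate stayed between -1.04 and -0.87, and the call was retained in 10 of 19, with adjusted p from 5.85e-12 to 0.0778. Leaving out any 1 library other than descending control replicates 1 and 3 took the adjusted p of the *Ahr* interaction to between 0.0681 and 0.129. That of the *Nqo1* interaction went to between 0.0533 and 0.0778 without any 1 ascending library or descending TGFβ replicate 1 or 2.

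**Figure D3:**
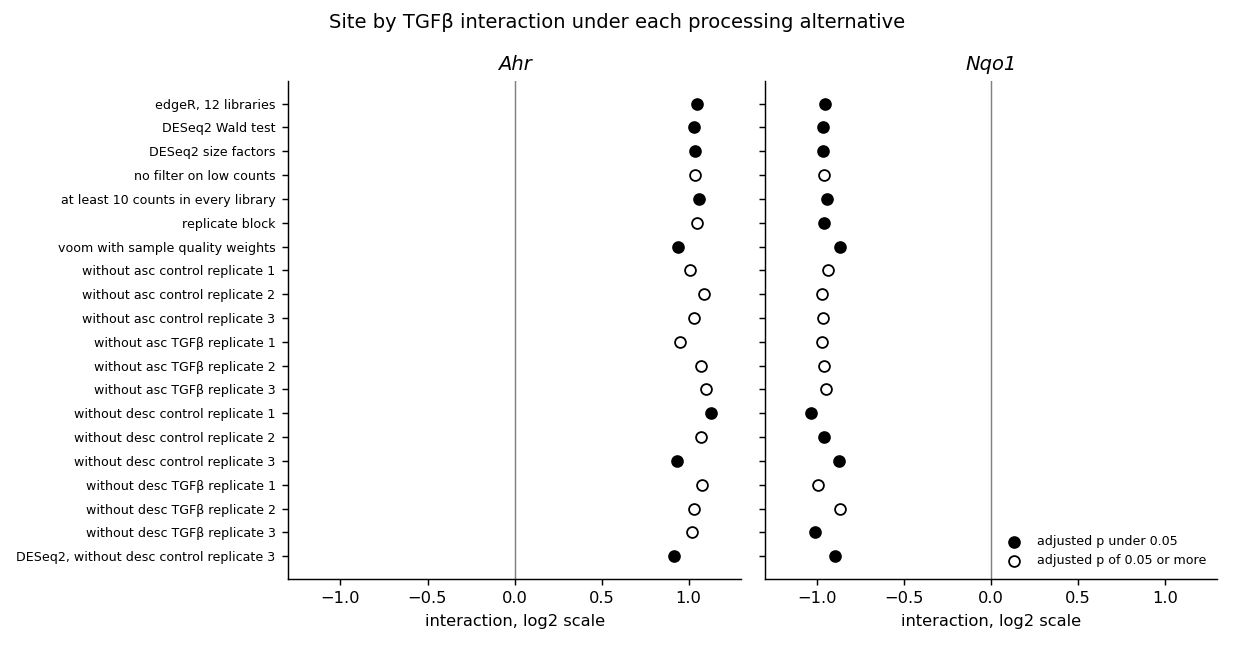
Site-by-TGFβ interaction (log2 scale) of *Ahr* and *Nqo1* with 12 libraries in edgeR and under each alternative. Filled symbols passed an adjusted p of 0.05. The estimates lay at 0.92 to 1.13 for *Ahr* and -1.04 to -0.87 for *Nqo1*, whereas many of the symbols are open.

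Ratios of levels per kilobase within a library, which the scaling between libraries does not touch, are given as a description with no test. *Ahr* over *Arnt* was 0.249 ± 0.0187 in control and 0.126 ± 0.0119 in TGFβ libraries of descending fibroblasts, and 0.276 ± 0.00502 and 0.242 ± 0.0290 in those of ascending fibroblasts (SD, n = 3 each). The descending TGFβ libraries, at 0.114 to 0.138, lay below all others. *Ahrr* over *Ahr* was 0.253 ± 0.0695 in descending TGFβ (SD, n = 3) and at most 0.107 in any library of the other groups. *Tiparp* over *Ahr* was 5.52 to 6.60 in descending TGFβ and 2.53 to 3.51 elsewhere. The ratio of *Cyp1b1* to *Nqo1* parted all groups, at 9.90 to 10.5 in ascending control, 6.43 to 6.60 in ascending TGFβ, 3.83 to 6.26 in descending control and 1.503 to 1.582 in descending TGFβ. Its highest descending control value, 6.26, was that of replicate 3.

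**Figure D4:**
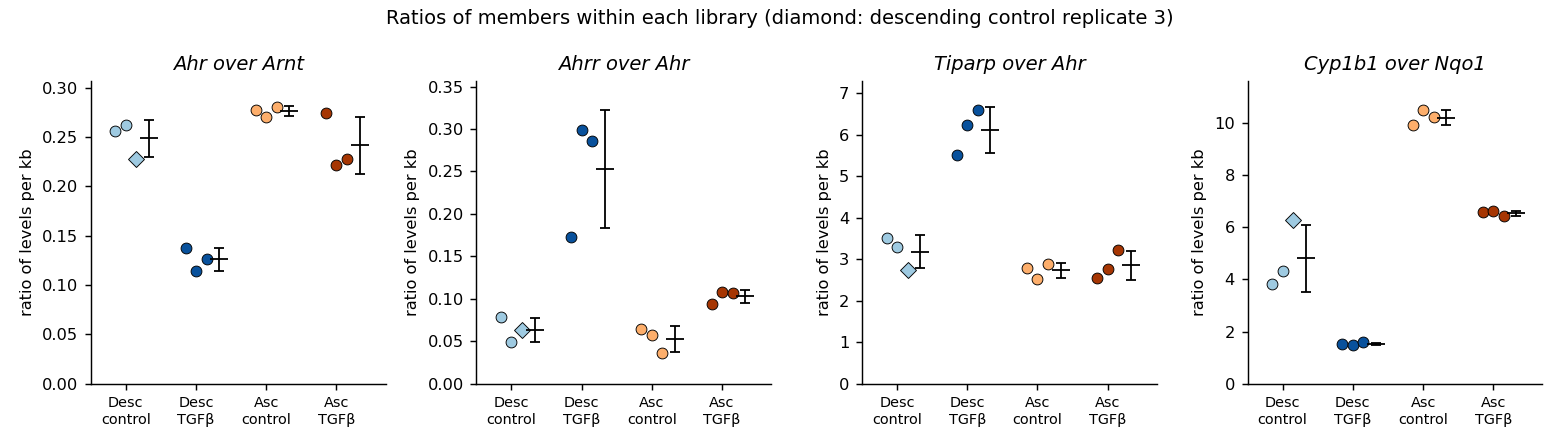
Ratios of members' levels per kilobase within each library (linear axes from 0) by group, with mean and SD (n = 3) and descending control replicate 3 as a diamond. *Ahr* over *Arnt* was lowest, and *Ahrr* and *Tiparp* over *Ahr* highest, in descending TGFβ, while *Cyp1b1* over *Nqo1* spanned 1.503 to 10.5.

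Lists of related genes put the members in context. Of the 12 other known AhR target genes listed, 9 were tested with TGFβ in ascending fibroblasts. There 3 rose and 5 fell, against 28.2% of all genes called higher and 27.6% lower. *Aldh3a1*, *Cyp2s1* and both *Ugt1a6* genes passed the filter on low counts through the control libraries alone, so that they had to be lower with TGFβ to differ, and the count of genes that fell supports nothing about the list. Their counts are given as a description, with no test. *Aldh3a1*, an aldehyde dehydrogenase, went from 96, 77 and 75 counts in ascending control to 7, 7 and 1 with TGFβ. *Cyp2s1*, another P450, went from 23, 35 and 30 counts to 0, 0 and 7. *Ugt1a6a*, a glucuronosyltransferase, went from 11, 21 and 20 counts to 1, 0 and 0, at least 5.62-fold lower against a floor of 3 counts per library, though the *Ugt1a* genes share exons and their counts are uncertain. Those that rose included *Nedd9*, a scaffold protein of focal adhesions, and *Slc7a5*, an amino acid transporter that carries tryptophan metabolites, by 2.38 and 0.95 on the log2 scale.

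In descending fibroblasts 5 of these target genes were tested. Of them 2 rose and 0 fell, against 3.59% and 4.48% of all genes, and 2 had an unadjusted p under 0.05. *Nedd9* rose by 2.85 on the log2 scale (SE 0.20, adjusted p = 0.00158) and *Slc7a5* by 1.53 (SE 0.22, adjusted p = 0.0143), and without control replicate 3 by 3.06 (SE 0.06, adjusted p = 7.38e-26) and 1.33 (SE 0.06, adjusted p = 1.15e-18). Descending control replicate 3 had 0 counts of *Aldh3a1*, *Cyp2s1*, *Scin* and both *Ugt1a6* genes, which fell short of the filter with that library included. Without it 9 were tested. Of them 3 rose and 4 fell, against 26.6% and 26.3% of all genes, with the same limit on the count that fell. *Ugt1a6a*, at 9 and 18 counts in the other descending controls, fell short of the filter either way. *Aldh3a1* had 40 and 38 counts in the other descending controls and 2, 3 and 1 with TGFβ. The interaction called 0 of 10 target genes with 12 libraries, 2 with an unadjusted p under 0.05. Without that library it called *Nedd9* at -0.67 (SE 0.08, adjusted p = 5.34e-07) and *Slc7a5* at -0.38 (SE 0.07, adjusted p = 0.000206), both of which rose more in descending fibroblasts. Over all genes the interaction then called 6.07% positive and 7.40% negative.

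Of the 12 genes of the NRF2 pathway, which shares *Nqo1*, 5 rose and 4 fell with TGFβ in ascending fibroblasts (median 0.04 against -0.00). Over all genes 28.2% were called higher and 27.6% lower there. In descending fibroblasts 2 rose and 0 fell (median 0.27 against 0.02, 4 with an unadjusted p under 0.05), and without control replicate 3, 5 rose and 3 fell (median 0.01 against -0.01). The shares over all genes were 3.59% higher and 4.48% lower with that library, and 26.6% and 26.3% without it. *Slc7a11*, the cystine transporter, rose by 1.18 on the log2 scale in descending fibroblasts (SE 0.15, adjusted p = 0.01004) and by 0.47 in ascending fibroblasts (SE 0.10, adjusted p = 0.00105). *Txnrd1*, thioredoxin reductase, rose by 0.55 in descending fibroblasts (SE 0.11, adjusted p = 0.0340) and by 0.78 in ascending fibroblasts (SE 0.04, adjusted p = 4.33e-11). Without control replicate 3 the descending values were 1.23 (SE 0.12, adjusted p = 3.44e-10) for *Slc7a11* and 0.58 (SE 0.05, adjusted p = 2.53e-10) for *Txnrd1*. Of the 4 that fell in ascending fibroblasts, *G6pdx*, the first enzyme of the pentose phosphate route, fell by 0.64 on the log2 scale (SE 0.04, adjusted p = 1.30e-09). In descending fibroblasts its change was -0.50 (SE 0.22, adjusted p = 0.233), and -0.70 (SE 0.05, adjusted p = 2.46e-12) without control replicate 3. *Txnrd1* and *G6pdx* were chosen after their values were seen. With 12 libraries the interaction called 0 of the 12, of which 3 had an unadjusted p under 0.05. Without descending control replicate 3 it called 2 in each direction, against 6.07% of all genes with a positive and 7.40% with a negative interaction. *Slc7a11* and *Gsr*, glutathione reductase, then had interactions of -0.76 (SE 0.15, adjusted p = 0.00100) and -0.59 (SE 0.10, adjusted p = 0.000235), the sign of *Nqo1*, whereas *Txnrd1* had 0.21 (SE 0.07, adjusted p = 0.0437) and *Me1*, malic enzyme, 0.22 (SE 0.06, adjusted p = 0.0146). The last 4 values were chosen after they were seen.

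**Figure D5:**
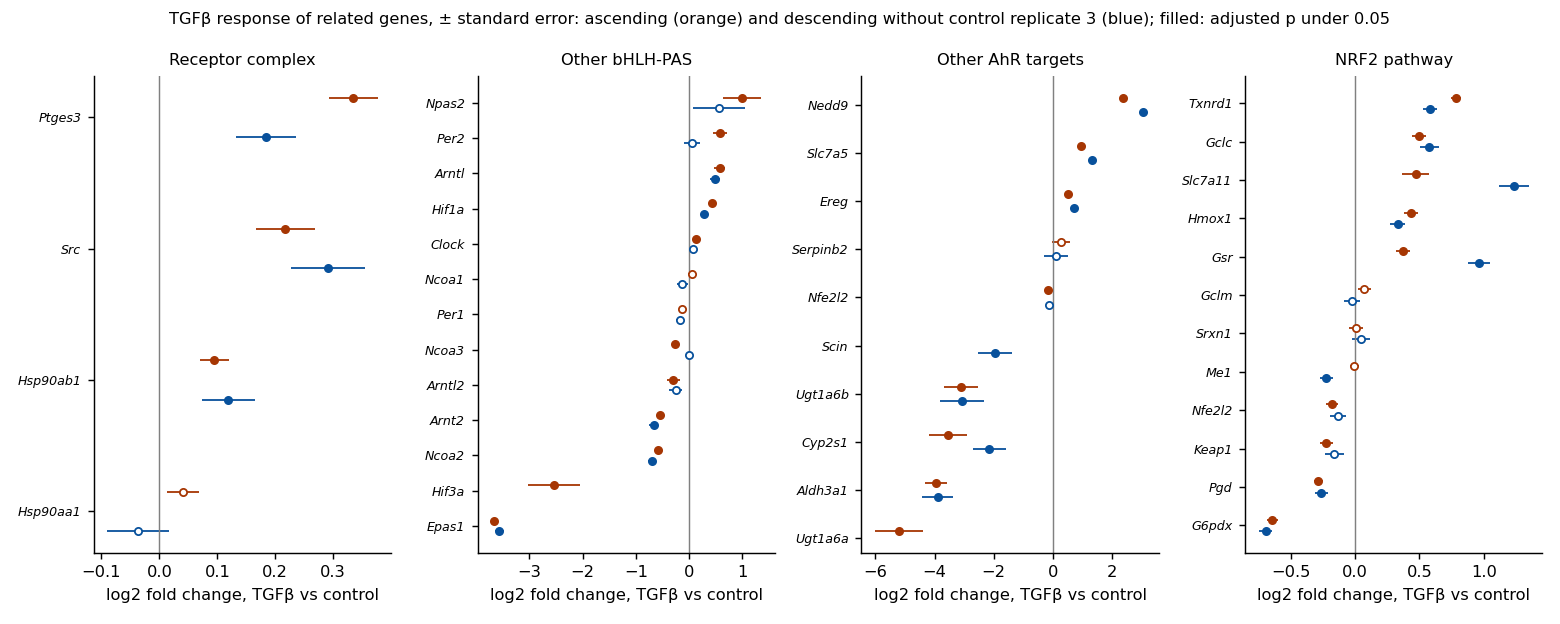
Log2 change with TGFβ and its SE for genes of 4 lists in ascending fibroblasts (orange) and in descending fibroblasts without control replicate 3 (blue). Filled symbols passed an adjusted p of 0.05, and genes absent from a fit are not drawn. *Nedd9* lay far above 0 at both sites. *Aldh3a1*, *Cyp2s1* and *Ugt1a6b* entered the fits through the control libraries alone, which fixed their direction, while *Slc7a11* and *Gsr* lay higher in descending fibroblasts.

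Of 14 other bHLH-PAS proteins and coactivators, the family that *Ahr* and *Arnt* belong to, 13 were tested with TGFβ in ascending fibroblasts. There 5 rose and 6 fell, against 28.2% of all genes called higher and 27.6% lower. One of those that fell, *Hif3a*, the gene of another HIF α subunit, had 20, 28 and 20 counts in ascending control and 2, 2 and 7 with TGFβ and passed the filter through the control libraries alone, so the count that fell is limited in the same way. In descending fibroblasts 12 were tested, of which 0 rose and 2 fell (median -0.30 against 0.02), and 2 rose and 3 fell without control replicate 3 (median -0.06 against -0.01). The shares over all genes were 3.59% higher and 4.48% lower with that library, and 26.6% and 26.3% without it. *Epas1*, the gene of HIF-2α and another ARNT partner, fell from 279, 299 and 267 normalized CPM to 21.4, 22.8 and 22.5 in ascending fibroblasts (log2 -3.67, SE 0.05, adjusted p = 5.07e-18). In descending fibroblasts it fell from 123, 139 and 196 to 10.1, 13.1 and 10.0 (log2 -3.79, SE 0.25, adjusted p = 0.00156), and by 3.57 on the log2 scale (SE 0.08, adjusted p = 7.47e-25) without control replicate 3. Under TGFβ 5 of 12 were higher and 3 lower in ascending fibroblasts (median 0.06 against 0.00), against 18.1% and 18.2% of all genes. *Epas1* lay at 1.01 (SE 0.10, adjusted p = 8.78e-10) and the clock gene *Per2* at 0.95 (SE 0.12, adjusted p = 1.34e-07) on the log2 scale.

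Of 4 genes of the cytosolic receptor complex, 3 rose and 0 fell with TGFβ in ascending fibroblasts (median 0.16 against -0.00). Over all genes 28.2% were called higher and 27.6% lower there. In descending fibroblasts edgeR called 0, all 4 with an unadjusted p of 0.05 or more, and without control replicate 3 it called 3 higher. The shares over all genes were 3.59% higher and 4.48% lower with that library, and 26.6% and 26.3% without it. *Ptges3*, the p23 cochaperone, rose by 0.33 in ascending fibroblasts (SE 0.04, adjusted p = 3.85e-06) on the log2 scale. Of 11 genes of the route from tryptophan to kynurenine, which supplies AhR ligands, 4 passed the filter on low counts in the TGFβ comparison of each site. In ascending fibroblasts 0 rose and 2 fell, *Ido2* and *Afmid*. *Ido2* had 18, 12 and 13 counts in ascending control and 3, 1 and 3 with TGFβ, so it passed the filter through the control libraries alone and the count supports nothing about the list. In descending fibroblasts edgeR called 0 of these 4, 1 with an unadjusted p under 0.05, and without control replicate 3 it called 1 lower. *Ido2* had 12, 15 and 33 counts in descending control and 1, 3 and 1 with TGFβ. It passed the filter through the control libraries alone there too, so the descending counts have the same limit. The interaction called 0 genes of the receptor complex, bHLH-PAS and kynurenine lists, with or without descending control replicate 3, and with 12 libraries 0 of them had an unadjusted p under 0.05. Without that library 1 receptor complex gene, 3 bHLH-PAS genes and 0 kynurenine genes had one.

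Between the sites under TGFβ, 1 of 5 other target genes was higher in ascending fibroblasts and 2 lower (median 0.02 against 0.00). Over all genes 18.1% were called higher and 18.2% lower in this comparison. *Ereg*, an EGF family ligand, was higher by 0.68 (SE 0.05, adjusted p = 1.01e-11) and *Nedd9* lower, at -0.79 (SE 0.04, adjusted p = 2.87e-16), on the log2 scale. Of the NRF2 genes 1 was higher and 4 lower (median -0.05), of the receptor complex 2 were higher and 0 lower (median 0.15), and of 3 kynurenine genes edgeR called 0. Without TGFβ, edgeR called 0 genes of these lists between the sites with all libraries compared, against 1.19% of all genes higher and 1.47% lower. Of the lists, 1 bHLH-PAS gene and 3 NRF2 genes had an unadjusted p under 0.05. Without descending control replicate 3, 3 target genes were higher and 0 lower, 4 NRF2 genes were higher and 2 lower, 2 bHLH-PAS genes lay in each direction, and 2 receptor complex genes were higher. The shares over all genes were then 16.4% higher and 15.2% lower.

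By Pearson's r of log2 CPM over the 12 libraries, the genes whose pattern was most like that of *Ahr* among 14631 were *Diaph3* (0.978), *Nuf2* (0.978), *Kif20a* (0.978), *Nek2* (0.972) and *Ccna2* (0.972). For *Nqo1* they were *Tgfb3* (0.986), *Rara*, *Vegfa*, *Hip1* and *Cdkn1a*, for *Cyp1b1* they were *Scrn1* (0.995), *Abca8b*, *Heg1*, *Cyld* and *Tfdp2*, and for *Tiparp* they were *Grb14* (0.960), *Il17d*, *Man2a1*, *Sgip1* and *Gja1*. The points share the 4 groups, so r mostly follows the group means. Only 1 of the 5 genes of each member remained among its first 5 over the 11 libraries without descending control replicate 3, namely *Nuf2*, *Tgfb3*, *Scrn1* and *Grb14*. Of the pairs of members, those with the largest r in size over the 12 libraries were *Ahr* and *Nqo1* at -0.92, *Cyp1b1* and *Nqo1* at -0.90 and *Ahr* and *Cyp1b1* at 0.83. After the group means were taken out these values were -0.54, -0.24 and 0.64 with 12 libraries and -0.16, 0.78 and 0.16 with 11, so that none kept its size and the second changed sign. *Arnt* and *Cyp1b1*, at 0.43 before, then had 0.93 with 12 libraries and 0.76 with 11.

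Markers of other cell types moved with the groups. All 7 fibroblast markers were above the floor, and their summed level was 12605 to 14226 normalized CPM in the control and 23358 to 25567 in the TGFβ libraries of descending fibroblasts, and 15496 to 16329 and 20523 to 20692 in those of ascending fibroblasts. The collagens carry this sum. *Col1a1*, *Col1a2* and *Pdgfrb* lay higher in every TGFβ library than in the controls of the same site, whereas *Dcn*, *Lum* and *Pdgfra* lay lower. *Pdgfra* lay at 362 to 379.5 normalized CPM in control and 78.5 to 90.6 in TGFβ libraries of descending fibroblasts, and at 180.4 to 188 and 52.0 to 59.3 in those of ascending fibroblasts. In the same order *Dcn* lay at 112 to 273, 35.8 to 39.4, 167 to 234 and 81.0 to 88.4. *Col3a1* lay lower with TGFβ in ascending fibroblasts and overlapped between the treatments in descending fibroblasts. The sum of 6 smooth muscle markers, all above the floor, was 2435 to 2515, 7895 to 8320, 1537 to 1654 and 5053 to 5148 in the same order. *Acta2*, which myofibroblasts express as well, made up nearly all of this sum, at 1423 to 8044 normalized CPM, while none of the other 5 markers exceeded 105 in any library. The 4 adipocyte markers summed to 75.5 to 109 in descending control, 25.0 to 45.0 in descending TGFβ and at most 14.6 in ascending libraries. The 5 mesothelial or epithelial markers summed to 16.2 to 38.5 in ascending and at most 1.69 in descending libraries, with *Krt8*, *Krt18* and *Epcam* at the floor in every group. *Upk3b* carried most of this sum, at 29.0 to 37.0 in ascending control and 14.7 to 22.8 in ascending TGFβ. Sums stayed at or under 26.9 for 6 endothelial markers, with *Emcn* and *Cldn5* at the floor, 67.4 for 6 macrophage markers and 24.7 for 3 Schwann cell markers. *Tek* carried the endothelial sum, at 3.60 to 25.7, while none of the other endothelial markers exceeded 1.61. The part of these shifts in the levels of the members was not tested.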

How the data were processed

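RNA of 12 cultures, 3 per combination of site and treatment, was sequenced as paired-end libraries. Per the labels and the study's methods, the authors aligned reads with STAR to mm10 and deposited raw featureCounts read counts per gene symbol, without normalization. The strand setting and the handling of shared reads are not given in the sources used here. Library totals ran from 16250126 to 23892943 counts. Symbols were matched to GENCODE vM21 (GRCm38), with 53753 of 54352 (98.9%) found, and exon lengths were taken from it.

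The deposited counts were tested in R 4.3.3 with edgeR 4.0.16 (TMM, filterByExpr with a minimum count of 10 and minimum total of 15, quasi-likelihood F-test, Benjamini-Hochberg adjustment, threshold 0.05). Pairwise fits used the 6 libraries compared and the interaction all 12, with no covariate. The SE is the log2 change divided by the square root of F. Alternatives were DESeq2 1.42.0, its size factors, no filter, at least 10 counts in every library, the replicate block, limma 3.58.1 voom with sample weights, a single fit of 12 libraries, and leaving out each library. Fits were tested on simulated counts in which 200 genes changed. Figures used matplotlib 3.10.9.

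The members and lists were chosen with earlier results of these data known, and the study had named *Ahr* from an interaction test of these libraries, so the p-values are not independent evidence. The 7 members were always named. Of the lists, up to 4 genes with the largest change past the threshold were named per comparison, and any past the interaction threshold. Results for 1 gene of the receptor complex list are not reported here, and its counts and medians leave that gene out. The named genes alike were the 5 with the highest Pearson r of log2 CPM (prior count 2). No 2 libraries agreed within sampling noise.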

Additional observations from a re-analysis of the deposited data

Results flagged for a closer look

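The responses of 2 members to TGFβ differed between the sites by the test of the interaction itself, 1 in each direction. Over all genes 0.321% had a called positive and 0.485% a called negative interaction. The study had named *Ahr* from an interaction test of these libraries, so its call is not independent evidence. For *Nqo1* the interaction was -0.96 on the log2 scale (edgeR's quasi-likelihood test, adjusted p = 0.0182), with a log2 change of 0.15 in ascending and 1.10 in descending fibroblasts, and TGFβ libraries above controls in 3 of 3 at each site. For *Ahr* it was 1.05 (same test, adjusted p = 0.0339), with -0.23 in ascending and -1.28 in descending fibroblasts. Of 19 alternatives, the call was retained in 10 for *Nqo1* and in 7 for *Ahr*.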

How the results depend on the processing

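Of the values of single members, 158 of the fits that left out 1 library and 185 of those with another setting kept their direction and their side of the threshold, 36 and 12 lost a call, 9 and 18 gained one, and 13 and 7 changed direction. Where a cause is not named it was not tested. DESeq2's Wald test called 2242 genes (8.98% of all tested) with TGFβ in descending fibroblasts, 1034 (4.07%) between the sites without TGFβ and 419 (1.52%) for the interaction. It called 1 member each between the sites without TGFβ and with TGFβ in ascending fibroblasts, where 26.6% of all genes were called. DESeq2 without descending control replicate 3, added after the data were seen, called 6169, 3537 and 1732 genes, with 4 members in the first and 2 in the second. As shares of all genes tested these were 24.8%, 14% and 6.31%. Voom with sample weights called 7335, 4392 and 1979 genes (53.1%, 31.2% and 13.5% of all tested), with 5 members in the first and 3 in the second. With 12 libraries in one fit 2338 genes and 1 member were called with TGFβ in ascending, 3570 and 4 in descending fibroblasts, 1545 and 2 between the sites without TGFβ, and 1106 genes under TGFβ. In that order these were 16%, 24.4%, 10.6% and 7.56% of all genes tested. Without a filter the interaction called 56 genes and 0 members, *Ahr* having 1.04 (adjusted p = 0.13, over all alternatives 7.31e-05 to 0.13).

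Same-numbered replicates did not deviate together (r from -0.026 to 0.0878 over 18 pairs, 6 of 12 libraries closest to their own number), so the number names samples only. With the replicate block edgeR called 95 genes and 0 members with TGFβ in descending fibroblasts, where 2280 genes had an unadjusted p under 0.05. Between the sites without TGFβ it called 0 genes, where 1235 had an unadjusted p under 0.05. For the interaction it called 50 genes (0.342% of all tested) and 1 member, with *Ahr* at 1.05 (adjusted p = 0.106).

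Leaving out 1 library, the calls with TGFβ in descending fibroblasts ranged from 213 to 7576 genes and 0 to 5 members, between the sites without TGFβ from 33 to 4631 genes and 0 to 3 members, and for the interaction from 25 to 2022 genes and 0 to 2 members. Each upper gene count was that without descending control replicate 3. As shares of all genes tested, the counts ran from 1.49 to 52.9%, 0.226 to 31.6% and 0.166 to 13.5%. With TGFβ in ascending fibroblasts 1 to 5 members were called, against 50.3 to 52.3% of all genes. The *Ahr* interaction ranged from 0.93 to 1.13.

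Values near 0 changed sign. *Arnt* between the sites without TGFβ was 0.016 under voom and 0.041 under DESeq2 without descending control replicate 3, with -0.25 to 0.039 on leaving out 1 library. The *Ahrr* interaction was -0.0080 under DESeq2, -0.037 under voom and -0.11 under DESeq2 without that library, with -0.21 to 0.19 on leaving out 1 library. The *Cyp1b1* interaction was -0.086 under voom and -0.13 under DESeq2 without that library, with -0.11 to 0.093 on leaving out 1 library. Leaving out 1 library also moved *Ahr* between the sites without TGFβ from -0.066 to 0.13 and *Arnt* with TGFβ in ascending fibroblasts from -0.075 to 0.026.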
